A study of Mus musculus with 4 samples.

Results

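The 10 genes described here are 9 classical cadherins and T-cadherin: the type I genes Cdh2 and Cdh4, the type II genes Cdh6, Cdh7, Cdh8, Cdh9, Cdh10, Cdh11 and Cdh12, and Cdh13, the gene of T-cadherin. Their probe sets were all those that the platform annotation assigns to exactly 1 gene with one of these symbols. This gave 24 probe sets of 45037 on the array, for 9 of the 10 genes (18193 genes are named on the array), and Cdh12 was not analysed here. RNA came from retinal neurons of mice at postnatal day 6, dissociated with papain, the offspring of males with the MP transgene and females without it, on a mixed C57Bl6 x CD1 background. Both groups express the transgene, since both were sorted as CFP-positive, and its promoter is not named in the labels. MP amacrine cells were also positive for VC1.1, an antibody to an amacrine cell epitope. MP bipolar cells were negative for it, after a magnetic column had removed the VC1.1-positive cells. Each group had 2 replicates from different litters, of about 1000 cells each, so 4 arrays were compared. The p-values rest on the spread between these and, as limma moderates variances, also on the spread of other genes.

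Classical cadherins are calcium-dependent adhesion proteins that bind cadherins on neighbouring cells through their outer domains and are tied to actin by catenins. Type I members such as Cdh2 (N-cadherin) and Cdh4 (R-cadherin) adhere strongly and are often broadly expressed, whereas type II members bind selectively within subgroups and are expressed by restricted sets of neurons. T-cadherin lacks the catenin-binding tail and is held in the membrane by a lipid anchor. In the retina, type II cadherins are known for guiding the processes of bipolar, amacrine and ganglion cell types to particular layers of the inner plexiform layer, and Cdh8 and Cdh9 are known from such work on cone bipolar cells.

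Array medians lay between 44.5 and 47.1, in the linear intensity units of the deposited table. Of 10 tested amacrine markers, MP amacrine cells had more of 8 and less of 0, and the summed intensity of the 12 on the array was 6487 to 6617 on amacrine and 661 to 673 on bipolar arrays. Of 9 tested bipolar markers, MP bipolar cells had more of 6, with sums of 7666 to 8153 on amacrine and 16359 to 16533 on bipolar arrays. Within these sums, Prdm8 read 4600 and 4694 on the amacrine and 5360 and 5465 on the bipolar arrays and was not called. Isl1, also not called, leaned the other way, at 1055 and 925 on the amacrine and 574.5 and 684 on the bipolar arrays. Trpm1, a defining gene of ON bipolar cells, was dim on all 4 arrays (22.4 to 26.7). Bhlhe23 and Gng13 of the same list were also too dim to be tested. Isl1 and Pcp2 (309 and 267) were not dim on the bipolar arrays. Whether the bipolar pool held ON bipolar cells was not tested. Markers of other cells were also detected, and whether the sorted cells express them was not tested. The summed intensity of 10 rod photoreceptor markers was 9137 to 14388 on amacrine and 9451 to 11488 on bipolar arrays, and that of 12 Müller glia markers was 4399 to 4786 and 2487 to 3068. Microglia markers (9 genes) summed to 1321 and 4324 on the amacrine and 1710 and 486 on the bipolar arrays. Retinal ganglion cell markers (9 genes) summed to 3882 and 1929 on the amacrine and 2814 and 3675 on the bipolar arrays, and horizontal cell markers (6 genes) to 3265 and 3444, and 1167 and 1039. The ganglion cell gene Thy1 was called higher on the bipolar arrays, with Pou4f3 (1.56 to 2.82), Sncg and Rbpms too dim to be tested. Of 4 tested genes on the horizontal cell list, Prox1 and Tpm3 were called, both higher on the amacrine arrays. Onecut1 and Onecut2 were not called, and Lhx1 and Calb1 were too dim to be tested. On MP amacrine replicate 1, however, Calb1 read 517, against 17.0 to 39.5 on the other arrays. Lhx1 read 51.2 there, against 3.79 to 10.6. The 3-prime to 5-prime difference of the Gapdh control was 3.21 on the log2 scale on MP amacrine replicate 2 and 1.78 to 2.0 on the others.

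MP bipolar and MP amacrine cells differed in type II cadherins. Cdh9, Cdh11, Cdh8 and Cdh10 were higher in MP bipolar cells, and MP amacrine cells had more Cdh6 and more of the T-cadherin gene Cdh13. The type I genes Cdh2 and Cdh4 did not pass the test, and Cdh7 was too dim in its brightest probe set to be tested. Of the 8 genes tested, 2 were thus called higher in MP amacrine cells, where 6.54% of all 11583 tested genes were, and 4 higher in MP bipolar cells, where 6.92% of all were. A call is an adjusted p under 0.05 in limma, fitted to log2(intensity + 16) of the brightest probe set of each gene, so a log2 difference understates that of dim genes. For 7 of the 8 genes the 2 groups did not overlap, as for 53.3% of all tested genes. The median log2 difference (amacrine minus bipolar) was -0.77 over the 8 and -0.03 over all tested genes. A gene was tested when its brightest probe set lay above the array median on at least 2 arrays, and Cdh13 did so only on the amacrine arrays, where it was high, so these counts describe the tested genes and support nothing further. The amacrine count was 1 without either amacrine array. The bipolar count was 2 without MP amacrine replicate 1 or MP bipolar replicate 1. In sorted pools, fewer cells that express a gene and less RNA per cell cannot be told apart.

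**Figure D1:**
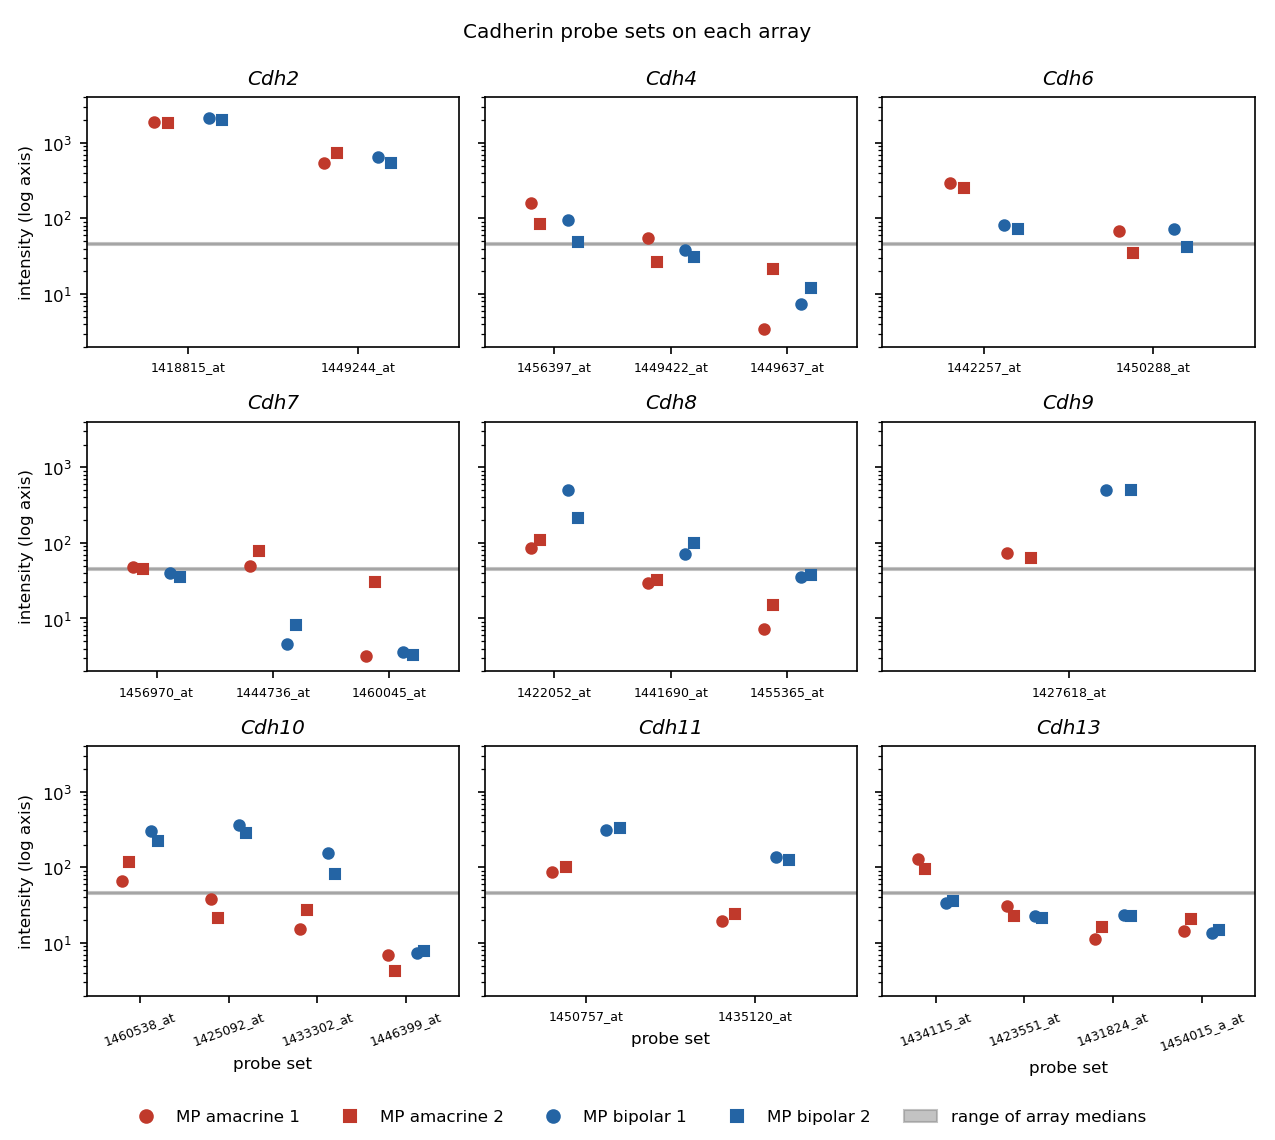
Intensity (log axis) of each of the 24 cadherin probe sets on each of the 4 arrays, with amacrine arrays in red and bipolar arrays in blue, circles for replicate 1, squares for replicate 2 and a grey band for the range of array medians. The probe set of Cdh9 lies at 64 and 73.9 on the amacrine arrays and at 496 and 501 on the bipolar arrays, while the brightest of Cdh2 lies between 1816 and 2128 on all arrays.

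**Figure D2:**
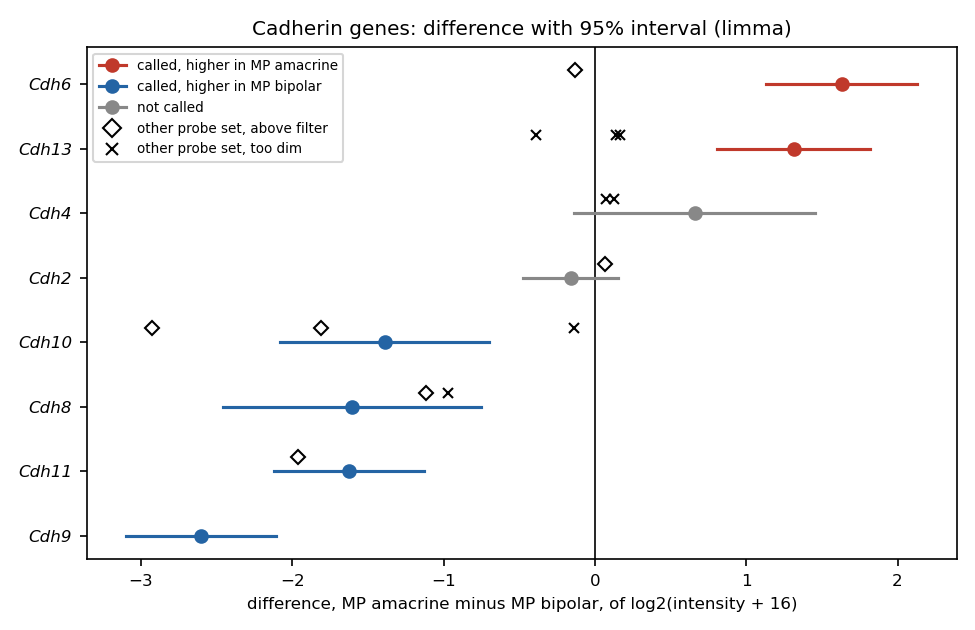
Difference between MP amacrine and MP bipolar cells on the log2(intensity + 16) scale for the 8 tested cadherin genes, with the 95% interval of the limma fit (2 arrays per group), and the differences of their other probe sets as diamonds (above the filter) or crosses (too dim). Of the brightest probe sets, Cdh9 lies farthest to the bipolar side at -2.60 and Cdh6 farthest to the amacrine side at 1.63, while diamonds of Cdh10 at -2.92 and Cdh6 at -0.13 lie apart from the brightest of their genes.

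Of the type I genes, Cdh2 codes for N-cadherin, which is broadly expressed in the neural retina and holds its layers together. Its brightest probe set was bright on every array, at 1887 and 1816 in MP amacrine and 2128 and 2012 in MP bipolar cells. The groups lay close together without overlap, and the log2 difference was -0.16 (95% interval -0.47 to 0.15, adjusted p = 0.549, limma). The other Cdh2 probe set overlapped between the groups, with 539 and 735 in amacrine and 659 and 546 in bipolar cells, a log2 difference of 0.07.

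Cdh4 codes for R-cadherin, a type I cadherin first described in the retina. Its intensities were 160 and 85.1 in MP amacrine and 94.5 and 48.6 in MP bipolar cells, so that the higher bipolar array lay above the lower amacrine array. The log2 difference of 0.66 (95% interval -0.14 to 1.46, adjusted p = 0.297, limma) did not pass. In both groups replicate 1 was the higher, and with the replicate number as a block the adjusted p was 0.0858. The 2 other Cdh4 probe sets were too dim, at 26.3 to 55.2 and 3.40 to 21.1.

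Among the type II genes, 4 lie side by side: Cdh6, Cdh9, Cdh10 and Cdh12 follow each other on mouse chromosome 15 with 0 other protein-coding genes between them in the RefSeq table of GRCm38.p6, and Cdh8 and Cdh11 are likewise neighbours on chromosome 8. The promoters of Cdh6, Cdh9 and Cdh10 are shown because these neighbours differed in opposite directions, and that of Cdh8 as a further gene higher in MP bipolar cells. They run 5′ to 3′ from 250 bases before to 50 bases after a start site, from RefSeq on GRCm38.p6. Each of the 4 windows lies inside the annotated span of its gene, so the start site used is not the outermost. The span of Cdh6 reaches to 13176407 and that of Cdh10 begins at 18818869. Capitals mark every E-box, CANNTG, the core that basic helix-loop-helix factors such as Neurod6 bind. Cdh6 is at chr15:13173626-13173925 on the minus strand, Cdh9 at chr15:16728665-16728964 and Cdh10 at chr15:18820079-18820378 on the plus strand, and Cdh8 at chr8:99416422-99416721 on the minus strand.
Cdh6: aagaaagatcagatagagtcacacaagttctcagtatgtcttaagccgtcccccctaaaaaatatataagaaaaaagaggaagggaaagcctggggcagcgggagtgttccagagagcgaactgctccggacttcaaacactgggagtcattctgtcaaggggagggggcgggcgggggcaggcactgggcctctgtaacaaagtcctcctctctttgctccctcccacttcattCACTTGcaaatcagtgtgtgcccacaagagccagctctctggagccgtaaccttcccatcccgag
Cdh9: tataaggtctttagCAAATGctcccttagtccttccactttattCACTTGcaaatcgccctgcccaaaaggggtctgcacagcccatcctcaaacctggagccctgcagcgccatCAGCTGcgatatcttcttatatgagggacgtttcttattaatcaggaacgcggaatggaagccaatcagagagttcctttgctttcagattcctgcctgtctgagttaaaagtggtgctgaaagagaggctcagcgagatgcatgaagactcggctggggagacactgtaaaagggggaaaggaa
Cdh10: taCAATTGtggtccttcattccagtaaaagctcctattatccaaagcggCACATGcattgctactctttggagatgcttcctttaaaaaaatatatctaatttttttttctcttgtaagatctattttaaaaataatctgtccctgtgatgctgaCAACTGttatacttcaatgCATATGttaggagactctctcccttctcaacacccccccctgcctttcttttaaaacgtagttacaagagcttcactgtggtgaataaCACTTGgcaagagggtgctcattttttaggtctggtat
Cdh8: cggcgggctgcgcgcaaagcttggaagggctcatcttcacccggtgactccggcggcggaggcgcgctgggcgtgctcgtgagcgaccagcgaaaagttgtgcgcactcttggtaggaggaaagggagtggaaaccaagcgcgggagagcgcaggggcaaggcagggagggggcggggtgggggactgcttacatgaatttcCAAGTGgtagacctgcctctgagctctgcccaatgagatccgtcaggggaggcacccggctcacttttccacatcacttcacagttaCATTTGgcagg

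The E-box counts were 1 in Cdh6, 3 in Cdh9, 5 in Cdh10 and 2 in Cdh8, and 72.3% of the 32851 promoters in the table hold at least 1, with a median of 1. All 4 hold the letters CACTTG on one strand or the other (13.6% of all promoters do, a motif picked after the sequences were seen). Of the 6 cadherin genes with an entry, for 8 promoters in all, each had it in at least 1 promoter. Cdh6, higher in MP amacrine cells, and its neighbour Cdh9, higher in MP bipolar cells, share the longest stretch of any pair, attCACTTGcaaatc, which 2 of all promoters in the table hold. It begins 18 bases before the start site used for Cdh6 and 209 before that used for Cdh9. CAGATG (17.2% of all promoters), the homeodomain cores GGATTA (7.06%) and TAATTA (5.29%), and TATAAA (13.6%) were searched on both strands and are not in these 4 windows. GGGCGG (35.7%) is in Cdh6 and Cdh8. The Cdh10 promoter is rich in A and T, with 37.7% G and C against a median of 52.7%. None of this bears on whether a factor binds there.

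By the brightest probe set of each gene, Cdh9 had the largest difference of the 8 tested cadherins, while a dimmer probe set of Cdh10 gave a larger one (-2.92). Cdh9 is known from one type of cone bipolar cell, whose axon it guides to its layer. Its single probe set read 73.9 and 64 in MP amacrine cells and 501 and 496 in MP bipolar cells, or 68.9 ± 7.05 and 499 ± 3.60 (SD, n = 2). The 2 arrays of each group were close to each other and the groups far apart. The log2 difference was -2.60 (SE 0.21, 95% interval -3.10 to -2.11, adjusted p = 1.62e-04, limma). It was the 115th of 6230 genes by size among those with a negative difference.

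Cdh11, known as OB-cadherin, is a type II cadherin of mesenchymal cells and developing neural tissue. Its brightest probe set read 87.1 and 101 in MP amacrine and 316 and 331 in MP bipolar cells, with no overlap. The log2 difference was -1.63 (SE 0.21, adjusted p = 0.00176, limma). The other probe set, at 19.7 and 24.1 against 139 and 124, gave -1.96, and it passed the filter only on the bipolar arrays. Both probe sets of Cdh11 read higher on both bipolar arrays, but for the other probe set the filter fixed this in advance.

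Cdh8 is known from another type of cone bipolar cell, where it likewise guides axons to a layer. Its brightest probe set read 84.9 and 110 in MP amacrine cells and 495 and 214 in MP bipolar cells. Both bipolar arrays lay above both amacrine arrays, but they differed from each other by more than the amacrine arrays did. The log2 difference was -1.60 (SE 0.37, adjusted p = 0.0243, limma). Leaving out 1 array ended the call in 3 of 4 cases: MP amacrine replicate 1 (-1.44, adjusted p = 0.0768), MP amacrine replicate 2 (-1.76, adjusted p = 0.0624) or MP bipolar replicate 1 (-1.03, adjusted p = 0.113), and the adjusted p was 0.0518 when all probe sets were tested singly. The second probe set read 29.3 and 31.9 against 72.2 and 99.9 (-1.12) and passed the filter only through the bipolar arrays. The third, too dim to be tested, read 7.30 and 15.1 against 35.9 and 37.4.

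Cdh10 is a type II cadherin of the nervous system that lies beside Cdh9. Its 4 probe sets gave differences of unlike size. The brightest, at 65.9 and 120 in MP amacrine and 306 and 221 in MP bipolar cells, gave a log2 difference of -1.39 (SE 0.30, adjusted p = 0.0185, limma). The next read 37.7 and 21.7 against 367 and 289, a difference of -2.92, and the third 15.4 and 27.6 against 157 and 81.1, a difference of -1.81. These 2 passed the filter only through the bipolar arrays, and the fourth was dim throughout, at 4.26 to 7.91. In each of the 4 probe sets both bipolar arrays lay above both amacrine arrays. For the 2 that passed only through the bipolar arrays the filter fixed this, and the 4 are not replicates of each other. The call of the brightest probe set was lost without MP amacrine replicate 1 (-1.02, adjusted p = 0.0513) and without MP bipolar replicate 1 (-1.17, adjusted p = 0.116). Without MP amacrine replicate 2 the probe set with the larger difference became the brightest, and the value was -2.67, beyond that of Cdh9 (-2.52).

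Cdh6, known as K-cadherin, was higher in MP amacrine cells. It is known in the retina from starburst amacrine cells and some ganglion cells. Its brightest probe set read 294 and 255 in MP amacrine and 83.1 and 72.4 in MP bipolar cells, with all 4 values above the array median and no overlap between groups. The log2 difference was 1.63 (SE 0.22, adjusted p = 0.00179, limma), and it lay between 1.54 and 1.73 with each array left out in turn. The other probe set showed no such difference, at 67.4 and 34.7 against 72.4 and 41.6 (-0.13, adjusted p = 0.882). With the mean of both probe sets the log2 difference was 0.75 and the call was lost (adjusted p = 0.0875). Which part of the transcript each probe set reads was not tested.

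Cdh7, another type II gene, is read by 3 probe sets, none of them bright. The brightest had 47.5 and 45.4 in MP amacrine and 40.2 and 35.7 in MP bipolar cells, above the median on 1 array only, and so the gene was not tested. The second read 50.1 and 78.4 in MP amacrine cells against 4.60 and 8.13 in MP bipolar cells. On its own that probe set was called in favour of MP amacrine cells (1.83, SE 0.25, adjusted p = 0.00597, limma), but it was tested only because of its amacrine arrays. The third read 3.14 and 30.0 against 3.57 and 3.32, so 1 amacrine array stood above the rest.

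Cdh13 codes for T-cadherin, the member with a lipid anchor in place of a tail. One of its 4 probe sets lay above the array median, on the amacrine arrays only, and was tested through them, with 128 and 95.5 in MP amacrine and 33.4 and 36.4 in MP bipolar cells. The log2 difference was 1.31 (SE 0.22, adjusted p = 0.00553, limma), and without either amacrine array it was too dim to be tested. The other 3 probe sets were dim on all 4 arrays, at 11.3 to 30.8, with differences of 0.17, -0.39 and 0.14. T-cadherin is also known from blood vessels, whose marker genes (12 on the array) summed to 407 and 530 in MP amacrine and 402 and 332 in MP bipolar cells. Of these, the endothelial gene Pecam1 was too dim to be tested, at 1 on both amacrine arrays and at 2.56 and 2.22 on the bipolar arrays. Cdh5, the cadherin of endothelial cells, read 50.2 and 54.9 against 38.4 and 40.1 (0.31, adjusted p = 0.406, limma). Kdr read 78.9 and 116 against 68.5 and 57.1 (0.51, adjusted p = 0.240, limma), and Tek overlapped between the groups. The pericyte gene Pdgfrb, the 1 called of the 5 tested, read 66.0 and 69.6 against 4.01 and 9.56. Another pericyte gene, Rgs5, was lower on both amacrine arrays, at 66.1 and 63.1 against 80.8 and 73.2, and did not pass (-0.21, adjusted p = 0.612, limma), and Cspg4 (1.09 to 5.53) and Acta2 (9.83 to 15.4) were dim on all 4 arrays. The part of vessel RNA in the Cdh13 difference was not tested.

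Tested singly, 15 of the 24 cadherin probe sets passed the filter. Of these, 3 were called higher in MP amacrine cells, against 4.52% of all 23648 probe sets tested, and 7 higher in MP bipolar cells, against 4.94% of all. Of the 3, 2 passed the filter only through the amacrine arrays, and of the 7, 4 passed only through the bipolar arrays, so they had to differ and the counts are a description. Without either bipolar array the 7 became 2, and without either amacrine array or MP bipolar replicate 2 the 3 became 1. The 7 belong to Cdh8, Cdh9, Cdh10 and Cdh11, and the 3 to Cdh6, Cdh7 and Cdh13. Probe sets of one gene share its RNA and are not replicates of each other. Of 8 tested Müller glia markers 3 were called higher in the amacrine group, led by Vim at 1672 and 1518 against 108 and 233. The 1 called higher in the bipolar group was Car2, at 157 and 120 against 244 and 289. Glul, the brightest of the list, overlapped at 2103 and 1870 against 1594 and 1937, and 4 further listed genes were too dim to be tested. The part of Müller glia RNA in the differences of Cdh6 and Cdh13 was not tested.

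**Figure D3:**
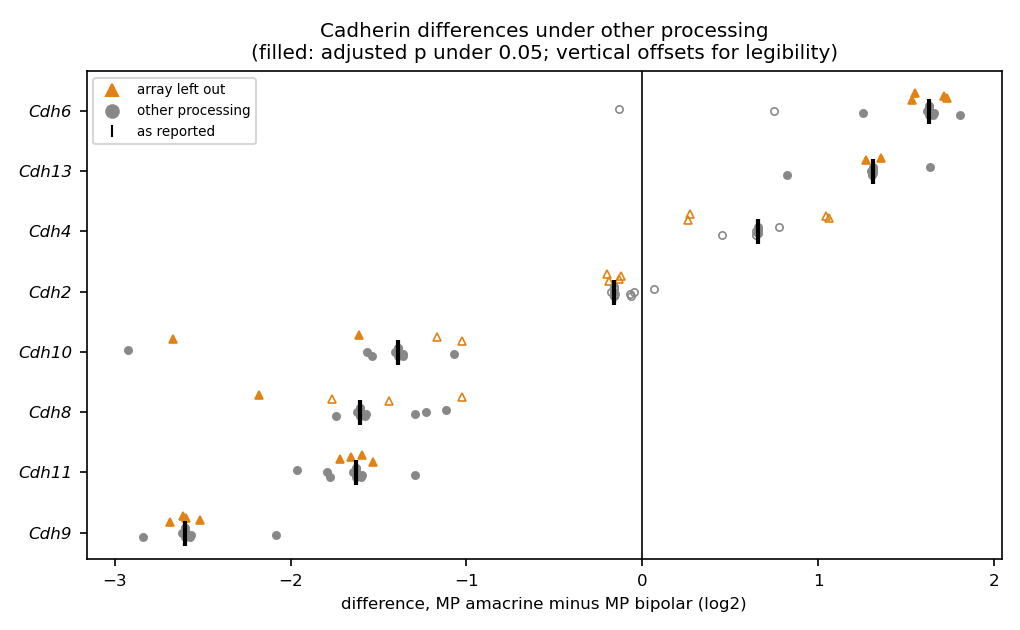
Log2 difference between MP amacrine and MP bipolar cells of the 8 tested cadherin genes as reported (bars), with 1 array left out (triangles) and under other processing (circles), filled where the adjusted p was under 0.05. Cdh9 and Cdh11 stay on the bipolar side with filled symbols throughout, from -2.84 to -2.08 and from -1.96 to -1.29, and Cdh6 crosses to -0.13 with its second probe set.

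By the distance between log2 values centred on their mean over the 4 arrays, the tested genes nearest to Cdh9 were Wnt5b (0.12), a secreted Wnt ligand, Lats2 (0.12), a kinase of the Hippo pathway, and Ldb2 (0.13), a cofactor of LIM domain proteins. Those nearest to Cdh6 were Chdh (0.10), a choline dehydrogenase, Zbed5 (0.10) and Dkk3 (0.11), a secreted protein that is also on the list of Müller glia markers. Such nearness over 4 arrays in 2 groups says little beyond a difference of similar size.

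Among the other classical cadherins, 9 of 10 listed genes were on the array and 2 were bright enough to be tested. Cdh22, a type II cadherin, read 425 and 461 in MP amacrine cells and 73.8 and 68.9 in MP bipolar cells, a log2 difference of 2.39 (SE 0.21, adjusted p = 2.39e-04, limma). It was the 1 called gene of the list. The other tested gene was Cdh5, given above. The rest were dim, among them Cdh18 at 1 to 4.88, Cdh20 at 8.29 to 14.0, and the epithelial gene Cdh1 at 8.27 to 17.2.

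Catenins tie cadherin tails to actin. Of 13 tested catenins and cytoplasmic partners, 1 was higher in MP amacrine and 3 in MP bipolar cells, with a median log2 difference of -0.06. The alpha-catenins split: Ctnna2, the neuronal form, read 249 and 278 in MP amacrine and 142 and 102 in MP bipolar cells (1.03, adjusted p = 0.0248, limma). Ctnna1, the broadly expressed form, read 436 and 406 in MP amacrine and 779 and 937 in MP bipolar cells (-0.99, adjusted p = 0.0180). Pkp4, a relative of p120-catenin, read 743 and 600 against 1832 and 2297 (-1.60, adjusted p = 0.00133), and Vcl, the actin linker vinculin, read 82.0 and 69.4 against 157 and 165 (-0.95, adjusted p = 0.0203). The call of Ctnna1 was lost with its second probe set (-0.70, adjusted p = 0.190), and those of Ctnna1, Ctnna2 and Vcl were each lost when MP amacrine replicate 2 or either bipolar array was left out (adjusted p from 0.0559 to 0.250). With the mean of their probe sets the calls of Vcl (-0.48, adjusted p = 0.122) and Ctnna1 (-0.49, adjusted p = 0.116) were lost too. Ctnnb1, beta-catenin, read 3416 and 3289 against 3513 and 4227 and did not pass (-0.20, adjusted p = 0.364).

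Of 13 tested genes of cadherin processing and regulation, 2 were higher in MP amacrine and 1 in MP bipolar cells (median 0.32), and all 3 code for receptor tyrosine phosphatases. Ptprm, itself an adhesion molecule that associates with cadherins, read 86.3 and 136 in MP amacrine and 2018 and 2420 in MP bipolar cells, a log2 difference of -4.16 (SE 0.26, adjusted p = 4.48e-05, limma). Its relative Ptprk went the other way, at 286 and 324 against 104 and 73.7 (1.63, adjusted p = 0.00289), a call lost with its second brightest probe set (0.79, adjusted p = 0.0736). Ptprf did too, at 1297 and 1255 against 719 and 484 (1.09, adjusted p = 0.0171), a call lost without MP amacrine replicate 2 (adjusted p = 0.0599) or MP bipolar replicate 2 (adjusted p = 0.118). It was also lost with the second brightest probe set (1.39, adjusted p = 0.0873) and with the mean of its probe sets (0.77, adjusted p = 0.0666). Adam10, the protease that sheds N-cadherin, overlapped between the groups at 1863 and 1767 against 1841 and 1423.

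Of 3 tested nectins and relatives, which act beside cadherins at junctions, MP amacrine cells had more of 0 and MP bipolar cells of 1. This was Pvr (-0.88, adjusted p = 0.0430, limma), which was not called under 12 of 19 alternatives, such as median scaling (adjusted p = 0.0587). Of 8 tested atypical cadherins MP amacrine cells had more of 0 and MP bipolar cells of 3, all of the Fat family of giant cadherins. Fat3, known for shaping amacrine cell dendrites, read 75 and 287 in MP amacrine cells and 1286 and 1316 in MP bipolar cells (-2.99, SE 0.49, adjusted p = 0.00491). Fat1 read 159 and 379 against 724 and 651 (-1.42, adjusted p = 0.0399), and Fat4 4248 and 3682 against 6208 and 6095 (-0.64, adjusted p = 0.00354). The call of Fat4 was lost without a filter (adjusted p = 0.0560) and without an intensity trend (adjusted p = 0.0842), and that of Fat3 without a filter (adjusted p = 0.0791). Fat1 was not called in 10 of 20 alternatives, among them those without MP amacrine replicate 1 (-0.83, adjusted p = 0.0586), MP bipolar replicate 1 (adjusted p = 0.144) or MP bipolar replicate 2 (adjusted p = 0.112). The amacrine arrays differed from each other in Fat1 and Fat3, with replicate 2 the higher in both.

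**Figure D4:**
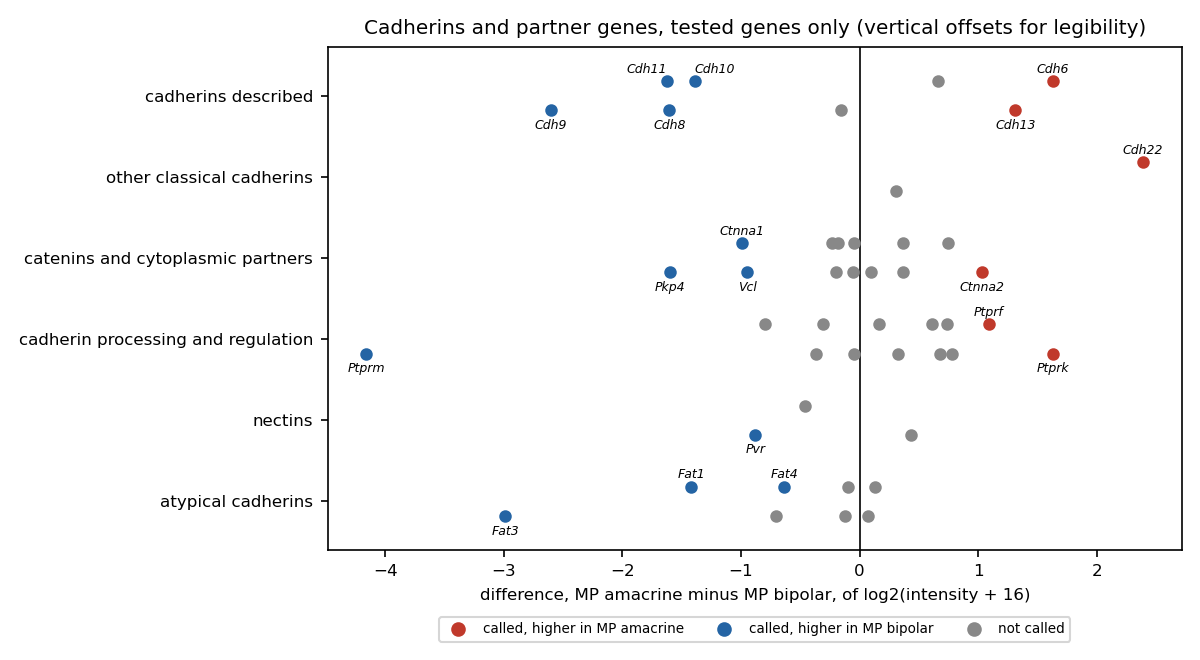
Difference between MP amacrine and MP bipolar cells on the log2(intensity + 16) scale of every tested gene of the cadherins described and of 5 lists of related genes, coloured where called by limma. Ptprm at -4.16 and Cdh22 at 2.39 are the outermost called genes on each side, and the called catenins and phosphatases lie on both sides of 0.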

How the data were processed

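RNA of the 4 samples was amplified in 2 rounds, labelled with biotin and hybridised to Affymetrix arrays, per the labels' protocols. The authors deposited 1 linear intensity per probe set and array, and no label or file header used here names their summarising software or scaling. Samples were grouped by their titles. The values were taken as log2(intensity + 16), without further scaling. The 64 control probe sets were left out. Probe sets were named by the platform annotation, and those with several genes (932) or none (9160) were given no gene. The brightest probe set over the 4 arrays stood for a gene, and 11583 of 18193 genes passed the filter at the array median on at least 2 arrays. MP amacrine and MP bipolar cells were compared with limma 3.58.1 in R 4.3.3 (lmFit, eBayes with an intensity trend, 2 residual degrees of freedom), two-sided, with Benjamini-Hochberg adjustment over all tested genes. An exact permutation test of 2 against 2 arrays cannot go below 0.333. The number of arrays limits the precision. The fit was tested on simulated data. The members and lists were chosen with earlier results of these data known. Genes named are all members, up to 4 called genes of each related list (the brightest where none was called), and the 3 genes nearest to the member with the largest difference each way. Trpm1, Prdm8, Isl1, Pcp2, Bhlhe23, Gng13, Ctnnb1, Adam10, Cdh1, Cdh5, Cdh18, Cdh20, Vim, Glul, Car2, Pecam1, Kdr, Tek, Pdgfrb, Rgs5, Cspg4, Acta2, Thy1, Nefl, Nefm, Pou4f1, Pou4f3, Sncg, Rbpms, Prox1, Tpm3, Onecut1, Onecut2, Lhx1 and Calb1 are named outside this rule, with their values known. Some listed genes were not analysed here. The alternatives were other scalings, filters (none, or the 75th percentile), offsets (1 and 64), choices among probe sets, variance moderation and thresholds, a replicate block and leaving out each array.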

Additional observations from a re-analysis of the deposited data

How the results depend on the processing

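Under quantile, loess and median scaling, offsets of 1 and 64, array weights and no intensity trend, the counts of cadherin genes called stayed within 1.5 times those reported. Cdh9 and Cdh11 were called in the reported direction under all 20 alternatives, and Cdh13 under the 15 that tested it. In the rest Cdh13 was too dim to be tested, so these 15 leave out the settings in which it was dim. Some alternatives could not end a call: the looser threshold reuses the reported fit. Cdh9 has a single probe set, so its difference could not change with the choice among probe sets. Without a filter, 2 cadherin genes were called higher in MP bipolar cells, where all tested genes gave 400 calls for MP amacrine and 385 for MP bipolar cells, cadherin probe sets 1 and 4, and the related lists 4. With the filter at the 75th percentile, 1 cadherin gene and 1 cadherin probe set were called higher in MP amacrine cells. With the mean of a gene's probe sets, 0 cadherin genes were called higher in MP amacrine cells by limma (Cdh6 had an adjusted p of 0.0875) and 6 related genes in either direction. With the second brightest probe set these were 1 and 6, all tested genes gave 419 and 411, Cdh6 reversed to -0.13 and Cdh2 to 0.069, both uncalled. The 1 was Cdh7, not a gene of the reported calls, through the probe set tested only because of its amacrine arrays. Cdh13 was then too dim to be tested. At an adjusted p under 0.01, 2 cadherin genes and 4 probe sets were called higher in MP bipolar cells, 6 related genes in either direction, and 444 and 439 of all tested genes. The cause of these changes was not tested, beyond the stricter threshold and the numbers of genes tested.

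Leaving out each replicate in turn gave 1 to 2 cadherin genes called higher in MP amacrine and 2 to 4 in MP bipolar cells, 1 to 2 and 2 to 6 cadherin probe sets, 405 to 536 and 312 to 1164 of all tested genes, and 6 to 14 genes of the related lists. The replicate block left the cadherin genes at 2 and 4 and called 8 cadherin probe sets, 1 more than reported, higher in MP bipolar cells. Of all tested genes it called 916 higher in MP amacrine and 1016 in MP bipolar cells, against 758 and 801 as reported. The replicate numbers were not taken as pairs. Same-numbered arrays did not deviate together (r = -0.04 across genes), which cannot show whether they shared a litter. Dim probe sets limit Cdh7, Cdh13 and the lesser probe sets of Cdh4, Cdh8 and Cdh10.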
